A study of Arabidopsis thaliana with 48 samples.

Results

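Histone H2B is a core protein of the nucleosome, the spool around which DNA is wound, and it enters the nucleosome as a pair with histone H2A. Plants carry many H2B genes, and their messages are needed most when DNA is copied and new nucleosomes are built. ASF1 is a histone chaperone that binds the other core pair, H3 with H4, and hands it to the machinery that assembles nucleosomes. Arabidopsis thaliana has an ASF1A and an ASF1B gene. Described here are 3 H2B genes, AT5G02570, AT3G53650 and HTB11 (AT3G46030), and the chaperone gene ASF1B (AT5G38110). They were listed by name, with earlier results of these data known, so shares of all probe sets beside them are a description. They are 4 of the 13355 genes that had a named probe set of their own on the array.

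RNA was measured on Affymetrix ATH1 arrays in the aerial part of 10-day seedlings of the line Landsberg erecta, either wild type or gcn2, for which the labels name no allele. GCN2 is the kinase that senses a shortage of amino acids and slows translation by phosphorylating the factor eIF2α. Seedlings of each genotype were dipped for 1 min in the herbicide chlorsulfuron (spelled chlorosufuron in the labels), which blocks branched-chain amino acid synthesis, or in solvent only, called mock, and were harvested after 2 h. Each of these 4 groups had 3 arrays of total RNA and 3 sucrose gradients, with 1 array each for non-polysomal RNA, small polysomes and large polysomes, which made 48 arrays. A dose of 0.5 mM is labelled, but diluting the labelled 5 mM stock 10000-fold gives 0.5 µM, 1000-fold less. Nothing in the labels tells whether the replicates grew separately, so the p-values cover the spread of these samples and no more.

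On assembly TAIR10.1 of the RefSeq annotation, AT5G02570 lies on chromosome 5 from 576655 to 577176 and ASF1B on chromosome 5 from 15208358 to 15210335. AT3G53650 lies on chromosome 3 from 19889297 to 19890251 and HTB11 on chromosome 3 from 16913384 to 16914131. The H2B genes span 522, 955 and 748 bases in the order AT5G02570, AT3G53650, HTB11, and ASF1B spans 1978 bases. Each was read by 1 probe set that the annotation used here assigns to that gene alone. H2B genes resemble each other closely, and whether messages of other H2B genes also bound these probes was not tested.

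Values are log2 signals, so a difference of 1 is a doubling, and signals of different probe sets are not compared with each other. Array medians lay between 6.145 and 6.311, apart from 1 wild-type mock large polysome array at 5.668. A call means an adjusted p below 0.05 from limma fitted across 22746 probe sets, with Benjamini-Hochberg adjustment, and changes are given with their standard error. The gradients labelled wild-type replicate 3 stood apart from the others. Across probe sets, their herbicide minus mock difference in non-polysomal RNA correlated at -0.611 and -0.627 with those of wild-type replicates 1 and 2, which correlated with each other at 0.644. In small polysomes the same correlations were -0.554 and -0.619 against 0.593, and in large polysomes -0.122 and -0.124 against 0.385. In wild-type total RNA they ran from 0.579 to 0.691, and in gcn2 from 0.508 to 0.82 over all RNA types. Whether the mock and herbicide labels of these gradients were exchanged was not tested, and their values are printed as labelled. Gradient comparisons that involve wild type are therefore given with and without them.

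**Figure D1:**
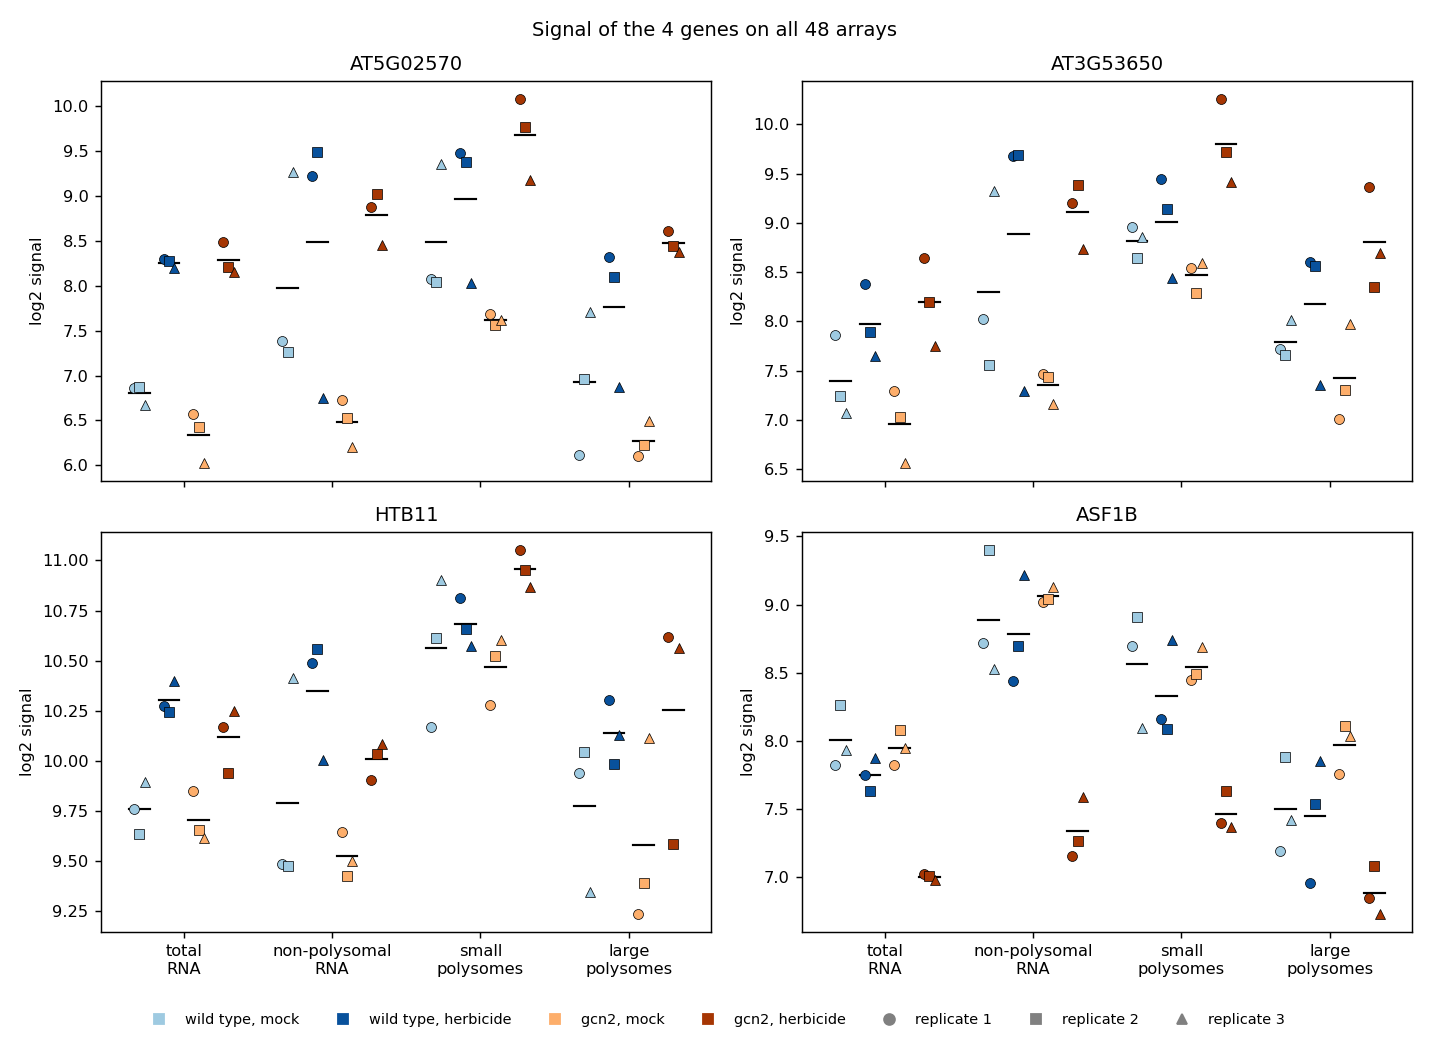
Log2 signal of the 4 genes on all 48 arrays, grouped by RNA type; colour gives genotype and treatment, marker shape the replicate number, and the black line the mean of 3 arrays. In total RNA the 3 gcn2 herbicide arrays of ASF1B sit between 6.98 and 7.02, below all others, and in non-polysomal RNA the triangles of wild type lie opposite to the circles and squares for AT5G02570 and AT3G53650.

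In total RNA the herbicide raised AT5G02570 and HTB11 in wild type and AT5G02570 and AT3G53650 in gcn2, while ASF1B fell in gcn2. In wild type 2 of the 4 genes rose, beside 4.05% of all probe sets, and 0 fell, beside 2.68%. All 3 H2B genes had an unadjusted p below 0.05 there and ASF1B did not. In gcn2 2 rose, beside 6.67% of all probe sets, and 1 fell, beside 4.87%. The median change over all probe sets was -0.02 in wild type and -0.06 in gcn2. The samples are whole aerial parts, so fewer cells of a type and less RNA per cell cannot be told apart. Same-numbered total RNA samples deviated together, so a fit with the replicate number as a block is given where it changes a call.

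AT5G02570, an H2B gene, had the largest response of the 4 genes in total RNA. Its signals were 6.87, 6.87 and 6.67 in wild-type mock and 8.30, 8.28 and 8.20 in wild-type herbicide. In gcn2 they were 6.57, 6.43 and 6.02 in mock and 8.49, 8.21 and 8.16 in herbicide. Within each genotype every herbicide array lay above every mock array by more than 1 log2 unit. The rise was 2.75-fold in wild type (log2 1.46 ± 0.15, adjusted p = 2.3e-05, limma), against 3.85-fold in gcn2 (1.95 ± 0.15, adjusted p = 1.2e-07). The order of the means was gcn2 mock (6.34), wild-type mock (6.80), wild-type herbicide (8.26) and gcn2 herbicide (8.28). The upper pair differed by 0.03 ± 0.15, less than the spread of their arrays. The mock arrays of gcn2 lay below those of wild type, but that difference of -0.46 ± 0.15 did not pass (adjusted p = 0.41 over all probe sets).

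AT3G53650, another H2B gene, rose in gcn2 and had a wider spread between arrays. It read 7.86, 7.24 and 7.07 in wild-type mock and 8.38, 7.90 and 7.65 in wild-type herbicide. In gcn2 it read 7.29, 7.03 and 6.56 in mock and 8.64, 8.20 and 7.75 in herbicide. Replicate 1 was the highest and replicate 3 the lowest in all 4 groups, and the wild-type groups overlapped while the gcn2 groups did not. The change was 2.36-fold in gcn2 (1.24 ± 0.26, adjusted p = 0.0045). In wild type it was 0.58 ± 0.26 (adjusted p = 0.21), and with the replicate block it passed at 0.58 ± 0.11 (adjusted p = 0.002). Within replicate numbers, herbicide minus mock was 0.52, 0.65 and 0.57 in wild type and 1.35, 1.17 and 1.19 in gcn2. The means rose in the order gcn2 mock (6.96), wild-type mock (7.39), wild-type herbicide (7.98) and gcn2 herbicide (8.20), and neighbours in this order overlapped.

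HTB11, also an H2B gene, changed less. Its signals were 9.76, 9.63 and 9.89 in wild-type mock and 10.28, 10.24 and 10.40 in wild-type herbicide. In gcn2 they were 9.85, 9.66 and 9.61 in mock and 10.17, 9.94 and 10.25 in herbicide. Herbicide arrays lay above mock arrays of the same genotype without overlap. The rise in wild type was 1.46-fold (0.54 ± 0.13, adjusted p = 0.019). In gcn2 the change of 0.41 ± 0.13 was just outside the threshold (adjusted p = 0.051) and passed with the replicate block (adjusted p = 0.014). Both calls were close: when 1 array was left out, the adjusted p ran from 0.029 to 0.069 in wild type and from 0.043 to 0.17 in gcn2. In wild type the call was lost without mock replicate 1 or 2 or herbicide replicate 2 or 3, and in gcn2 it was gained without herbicide replicate 2. The means ran from gcn2 mock (9.71) and wild-type mock (9.76), whose arrays overlapped, to gcn2 herbicide (10.12) and wild-type herbicide (10.31), whose ranges also overlapped. With the block, 8.15% of all probe sets rose in wild type and 9.80% in gcn2, and each of the 3 H2B genes was among them in both genotypes.

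ASF1B, the chaperone of H3 and H4, went the other way. Its signals in wild type were 7.82, 8.27 and 7.93 in mock and 7.75, 7.63 and 7.87 in herbicide, and these groups overlapped. In gcn2 they were 7.82, 8.08 and 7.94 in mock and 7.02, 7.01 and 6.98 in herbicide. The 3 gcn2 herbicide arrays lay below the other 9 arrays, which ran from 7.63 to 8.27. ASF1B fell 1.93-fold in gcn2 (-0.95 ± 0.14, adjusted p = 0.00016), and its change in wild type was -0.25 ± 0.14 (adjusted p = 0.31). The order of the means was gcn2 herbicide (7.002), wild-type herbicide (7.75), gcn2 mock (7.95) and wild-type mock (8.01), and the upper 3 overlapped.

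**Figure D2:**
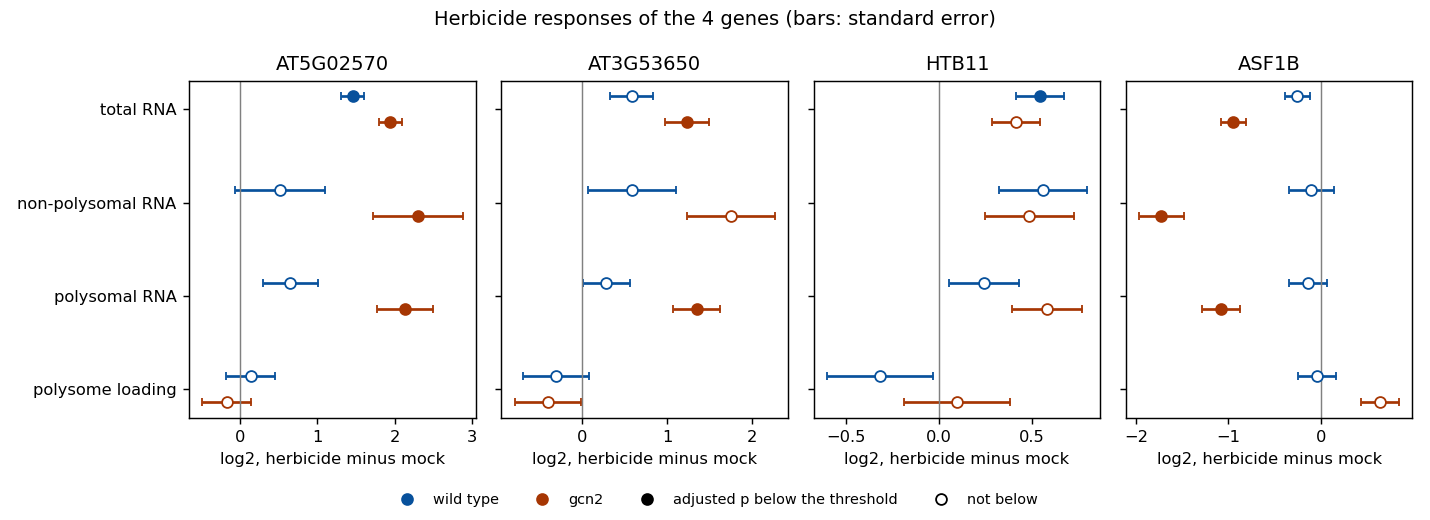
Herbicide minus mock (log2, x axis, its scale set for each gene) in 4 measures for the 4 genes, with the standard error as bars and n = 3 per group; blue is wild type, brown is gcn2, and filled points passed an adjusted p of 0.05. ASF1B in gcn2 lies left of 0 in every RNA measure, at -0.95, -1.72 and -1.08, and the H2B genes lie right of 0 in every RNA measure.

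Whether the herbicide response itself differed between the genotypes was tested as the gcn2 change minus the wild-type change, called the interaction. In total RNA 0 of the 4 genes passed, beside 1.53% of all probe sets, and 2 had an unadjusted p below 0.05. The interaction was -0.69 ± 0.19 for ASF1B (adjusted p = 0.1), 0.65 ± 0.36 for AT3G53650 (adjusted p = 0.53), 0.49 ± 0.21 for AT5G02570 (adjusted p = 0.36) and -0.13 ± 0.18 for HTB11 (adjusted p = 0.86). With the replicate block, ASF1B passed as lower (adjusted p = 0.032) and AT3G53650 as higher (adjusted p = 0.021), where 1.79% of all probe sets were lower and 2.83% higher. Leaving out 1 array moved the ASF1B interaction between -0.82 and -0.60, and it passed without wild-type mock replicate 2, the highest array of that group (adjusted p = 0.041).

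The genotypes were also compared within each treatment, with the same arrays. In mock, gcn2 minus wild type lay between -0.46 and -0.06 for the 4 genes in total RNA, and 0 passed, beside 0.136% of all probe sets. One of them, AT5G02570, had an unadjusted p below 0.05. In herbicide, ASF1B was 1.68-fold lower in gcn2 than in wild type (-0.75 ± 0.14, adjusted p = 0.0031), beside 1.42% of all probe sets that were lower. The H2B genes gave 0.22 ± 0.26 for AT3G53650, 0.03 ± 0.15 for AT5G02570 and -0.19 ± 0.13 for HTB11, and did not pass.

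The other measured genes of the histone families show how far the total RNA changes of the 3 H2B genes were shared. Of 11 H2B genes listed, 10 had a probe set of their own, of which 4 rose in wild type (4.05% of all probe sets did), 5 rose in gcn2 (6.67%) and 0 fell in either (2.68% and 4.87%). With the replicate block 6 rose in each genotype (8.15% and 9.80%). The median change of the 10 was 0.42 in both genotypes. The list contains the 3 H2B genes already described, which make up 2 of the 4 and 2 of the 5, and it was drawn up with earlier results of these data known. AT3G09480 rose by 1.12 ± 0.16 in wild type (adjusted p = 0.00048), and its rise in gcn2 was 1.24 ± 0.16 (adjusted p = 4.4e-05). AT2G28720 rose by 0.48 ± 0.13 (adjusted p = 0.045) and 0.46 ± 0.13 (adjusted p = 0.035). AT2G37470 rose by 0.43 ± 0.11 in gcn2 (adjusted p = 0.019), and its change in wild type was 0.35 ± 0.11 (adjusted p = 0.071, and 0.027 with the block). HTB1, HTB2, HTB4 and AT1G08170 gave changes from -0.14 to 0.17 in wild type and from 0.03 to 0.28 in gcn2 and did not pass. AT1G08170 had group means from 2.82 to 3.03, below the lower quartile of every array (3.439 to 3.827), so its changes are uncertain in size.

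**Figure D3:**
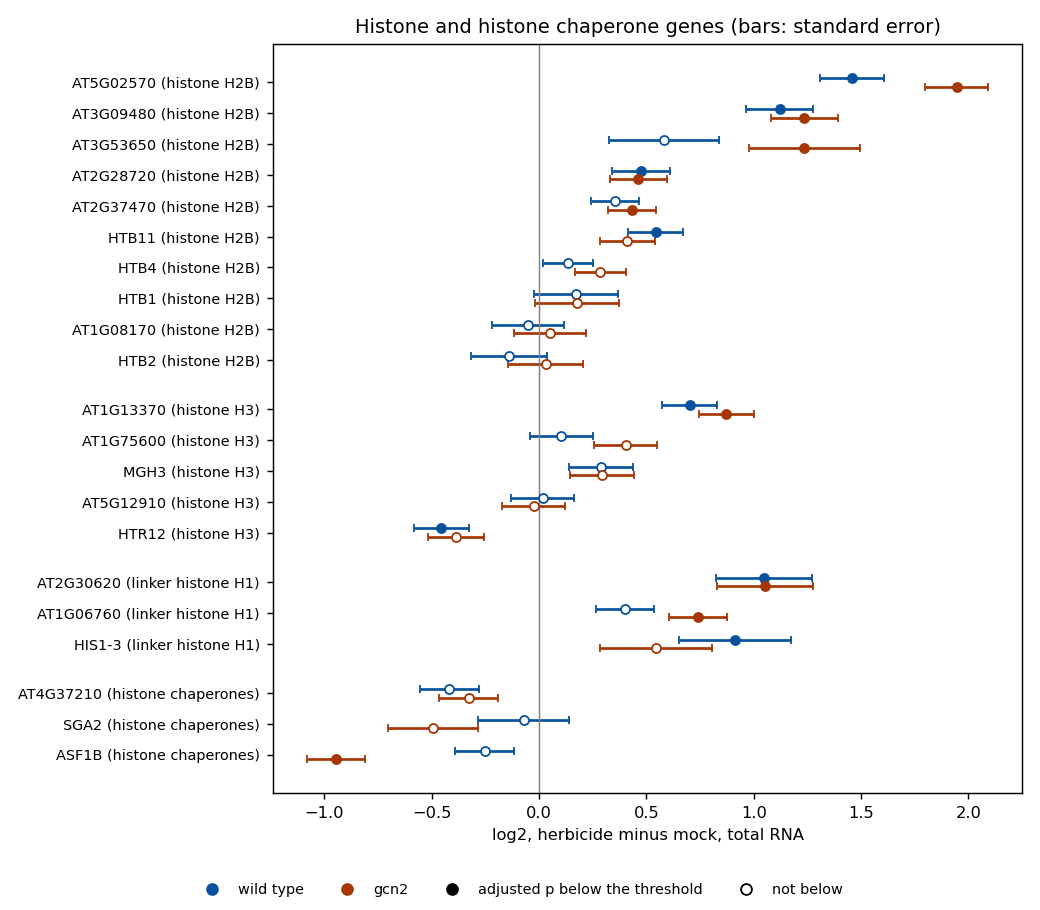
Herbicide minus mock in total RNA (log2, x axis) for the measured H2B, H3, linker histone and histone chaperone genes, with the standard error as bars and n = 3 per group; blue is wild type, brown is gcn2, and filled points passed an adjusted p of 0.05. AT5G02570 lies farthest right, at 1.46 and 1.95, and ASF1B in gcn2 farthest left, at -0.95.

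Among histone H3 genes, 5 of 14 were measured. Of these, 1 rose in each genotype, beside 4.05% and 6.67% of all probe sets, and 1 fell in wild type, beside 2.68%. AT1G13370 rose by 0.70 ± 0.13 in wild type (adjusted p = 0.0036), with 0.87 ± 0.13 in gcn2 (adjusted p = 0.00021). HTR12, the centromeric H3 variant, fell by 0.45 ± 0.13 in wild type (adjusted p = 0.048), and its change in gcn2 was -0.39 ± 0.13 (adjusted p = 0.068). With the block HTR12 passed in gcn2 as well (adjusted p = 0.015), where 11.9% of all probe sets fell. MGH3, AT1G75600 and AT5G12910 did not pass in either genotype, apart from AT1G75600 in gcn2 with the block (0.40 ± 0.13, adjusted p = 0.036). AT1G13370 had mock means of 3.70 and 3.72, and the group means of MGH3, AT1G75600 and AT5G12910 ran from 2.59 to 3.64. The lower quartiles of the total RNA arrays ran from 3.439 to 3.621. The AT1G13370 mock means lay just above them, and its herbicide means were 4.40 in wild type and 4.59 in gcn2. The means of the other genes lay near or below them. The changes of these 4 genes are therefore uncertain in size. All 3 linker histone H1 genes, which bind the DNA between nucleosomes, were measured, and 2 rose in each genotype, beside 4.05% and 6.67% of all probe sets. AT2G30620 rose by 1.05 ± 0.22 in both (adjusted p = 0.011 and 0.0052). HIS1-3, the drought-inducible linker histone, rose by 0.91 ± 0.26 in wild type (adjusted p = 0.047), and its change in gcn2 was 0.55 ± 0.26 (adjusted p = 0.21). AT1G06760 rose by 0.74 ± 0.14 in gcn2 (adjusted p = 0.0016), and its change in wild type was 0.40 ± 0.14 (adjusted p = 0.092, and 0.02 with the block). Genes for H2A and H4, the partners in the nucleosome core, were matched to no probe set that reads them alone and were not analysed here.

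Of 18 histone chaperone genes, 3 were measured. ASF1B in gcn2 was the one that passed with herbicide in total RNA, where 4.87% of all probe sets fell. SGA2, which is ASF1A, in total RNA gave -0.07 ± 0.21 in wild type (adjusted p = 0.9) but -0.49 ± 0.21 in gcn2 (adjusted p = 0.16). AT4G37210, a relative of the H3 and H4 chaperone NASP, gave -0.42 ± 0.14 (adjusted p = 0.082) and -0.33 ± 0.14 (adjusted p = 0.15). With the replicate block all 3 chaperone genes fell in gcn2, beside 11.9% of all probe sets, with an adjusted p of 0.0088 for SGA2 and 0.027 for AT4G37210. In wild type AT4G37210 fell with the block (adjusted p = 0.01), beside 7.87%. UBP26, which removes ubiquitin from H2B and was 1 measured gene of 7 in that list, gave -0.14 ± 0.19 and -0.04 ± 0.19 and did not pass. Of 30 genes of DNA replication and S phase, 3 were measured and 0 passed without the block. With it PRL fell in wild type (-0.39 ± 0.11, adjusted p = 0.03), beside 7.87% of all probe sets. The 3 measured genes were the helicase subunit gene PRL, the DNA polymerase gene ICU2 and AT5G26680. Their changes ran from -0.39 to -0.15 in wild type and from -0.25 to -0.20 in gcn2. None of 16 listed genes of G2 and mitosis had a named probe set of its own, so cell division was covered by few genes.

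The labelled tissue was checked with markers. None of 6 leaf markers had a named probe set of its own, and the stem cell gene CLV3 had total RNA means from 2.52 to 2.60, below the array lower quartiles. The root genes EXPA7, EXPA18 and AT5G17820 had group means from 2.87 to 3.44. PYK10, a beta-glucosidase known from roots and hypocotyls, had group means from 10.46 to 10.71. None of these markers passed in either herbicide comparison of total RNA, with or without the block, where PYK10 gave -0.25 ± 0.21 in wild type and -0.09 ± 0.21 in gcn2.

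Non-polysomal RNA, from the top of the gradient, holds messages not bound by several ribosomes. In gcn2 the herbicide lowered ASF1B and raised AT5G02570 there. ASF1B read 9.02, 9.04 and 9.13 in gcn2 mock and 7.16, 7.26 and 7.59 in gcn2 herbicide. It fell 3.31-fold (-1.72 ± 0.24, adjusted p = 0.00036), and 1.63% of all probe sets fell. AT5G02570 read 6.73, 6.52 and 6.20 in gcn2 mock and 8.88, 9.02 and 8.45 in gcn2 herbicide, without overlap. It rose 4.93-fold (2.30 ± 0.58, adjusted p = 0.028), and 3.99% of all probe sets rose. With each of these 6 gcn2 arrays left out in turn, that adjusted p ran from 0.045 to 0.099, and the call held only without herbicide replicate 3. In the other fits, which kept all 6 gcn2 arrays, the adjusted p ran from 8.4e-05 to 0.039. The main fit uses 1 estimate of the spread for all 4 groups. For AT5G02570 the standard deviation was 1.12 in wild-type mock and 1.51 in wild-type herbicide, against 0.27 and 0.30 in gcn2. AT3G53650 changed by 1.75 ± 0.52 (adjusted p = 0.06), and its gcn2 arrays did not overlap either, with mock from 7.16 to 7.47 and herbicide from 8.74 to 9.38. It passed when the gcn2 groups were fitted without the wild-type groups (1.75 ± 0.21, adjusted p = 0.0005), with array weights (1.88 ± 0.39, adjusted p = 0.0038) and with an intensity trend (adjusted p = 0.043). HTB11 changed by 0.49 ± 0.24 (adjusted p = 0.29).

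In wild-type non-polysomal RNA 0 of the 4 genes passed with all gradients, beside 0.0% of all probe sets, and 1 gene, HTB11, had an unadjusted p below 0.05. AT5G02570 read 7.39, 7.26 and 9.27 in mock and 9.22, 9.49 and 6.75 in herbicide, so replicate 3 ran opposite to the other two. AT3G53650 read 8.02, 7.56 and 9.32 in mock and 9.68, 9.69 and 7.30 in herbicide, with the same reversal. HTB11 read 9.48, 9.47 and 10.42 in mock and 10.49, 10.56 and 10.01 in herbicide. ASF1B read 8.72, 9.40 and 8.53 in mock and 8.44, 8.69 and 9.22 in herbicide, and for it too the sign of replicate 3 was the opposite one. Without the replicate 3 gradients of wild type, the 3 H2B genes passed as higher, beside 1.62% of all probe sets. AT5G02570 then gave 2.03 ± 0.24 (adjusted p = 0.002), AT3G53650 1.90 ± 0.25 (adjusted p = 0.0032) and HTB11 1.04 ± 0.19 (adjusted p = 0.017), with 2 gradients in each wild-type group. ASF1B gave -0.49 ± 0.25 (adjusted p = 0.31).

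**Figure D4:**
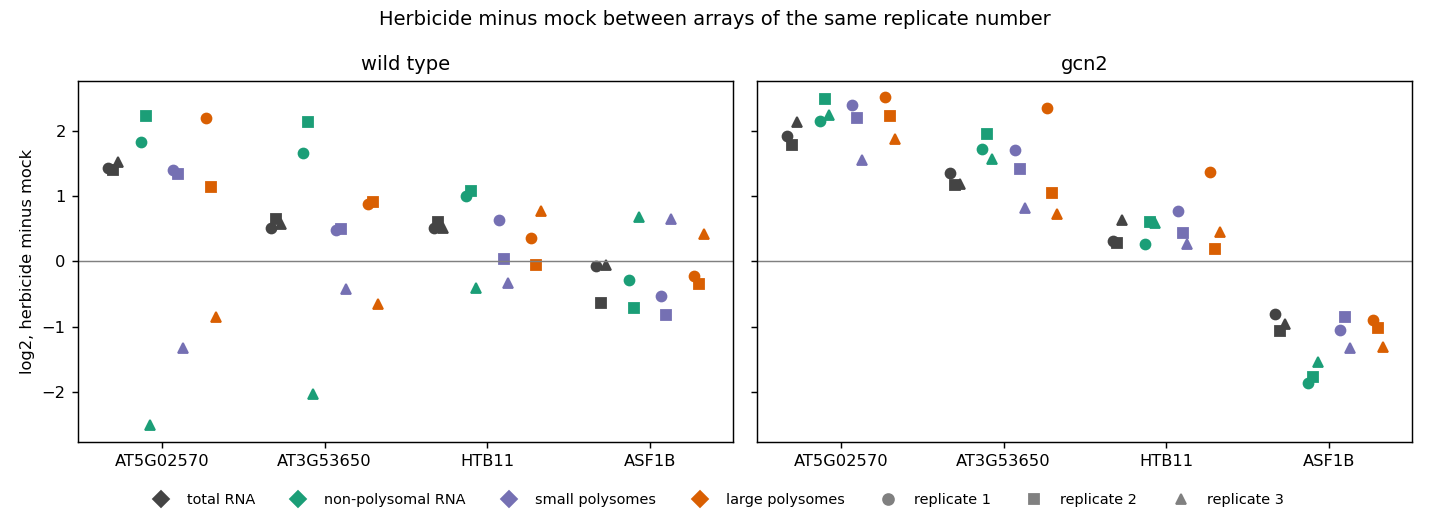
Herbicide minus mock (log2, y axis) between arrays of the same replicate number, by gene and RNA type (colour), for wild type and gcn2; marker shape gives the replicate number. In wild type the replicate 3 points of AT5G02570 are at -2.51, -1.32 and -0.84 in the gradient RNAs and at 1.53 in total RNA, while in gcn2 all points of the H2B genes lie above 0 and all of ASF1B below.

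In non-polysomal RNA ASF1B was the one of the 4 genes whose herbicide response differed between the genotypes. Its interaction was -1.62 ± 0.34 (adjusted p = 0.029), beside 0.106% of all probe sets that were lower. It did not pass without the wild-type replicate 3 gradients (-1.23 ± 0.32, adjusted p = 0.079), beside 0.418%, and with single arrays left out it ran from -1.88 to -1.41 with an adjusted p from 0.011 to 0.089. It passed there only without wild-type mock replicate 2, wild-type herbicide replicate 1 or gcn2 herbicide replicate 3. Within herbicide, ASF1B was 2.73-fold lower in gcn2 than in wild type (-1.45 ± 0.24, adjusted p = 0.0022), beside 4.20% of all probe sets. That difference passed without the wild-type replicate 3 gradients as well (-1.23 ± 0.22, adjusted p = 0.0049), beside 5.61%. SGA2 was also lower in gcn2 non-polysomal RNA, by -0.96 ± 0.22 with herbicide against mock (adjusted p = 0.014) and by -1.14 ± 0.22 against wild type in herbicide (adjusted p = 0.0052). For SGA2 the comparison with wild type is given with all gradients only, those of wild-type replicate 3 included. The interactions of AT5G02570 (1.79 ± 0.82), AT3G53650 (1.16 ± 0.73) and HTB11 (-0.07 ± 0.34) did not pass. Without the wild-type replicate 3 gradients they were 0.27 ± 0.32, -0.14 ± 0.32 and -0.56 ± 0.24. Gcn2 minus wild type in herbicide was 0.30 for AT5G02570, 0.22 for AT3G53650 and -0.34 for HTB11, and without those gradients -0.57, -0.58 and -0.51, none of which passed.

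Polysomal RNA, taken for each gradient as the mean of its small and large polysome signals, moved the same way in gcn2. AT5G02570 read 7.68, 7.57 and 7.61 in small polysomes of gcn2 mock and 10.08, 9.77 and 9.18 in gcn2 herbicide. In large polysomes it read 6.10, 6.22 and 6.50 in mock and 8.61, 8.45 and 8.38 in herbicide. The groups did not overlap in either pool, and the polysomal rise was 4.38-fold (2.13 ± 0.36, adjusted p = 0.0021). AT3G53650 rose 2.55-fold (1.35 ± 0.28, adjusted p = 0.0089), with small polysome signals of 8.54, 8.29 and 8.59 in mock and 10.26, 9.72 and 9.42 in herbicide. Its call was lost without gcn2 mock replicate 2 (1.27, adjusted p = 0.055) or gcn2 herbicide replicate 1 (1.09, adjusted p = 0.051). Over the fits that kept all gcn2 gradients, its adjusted p ran from 0.0011 to 0.081, the highest in large polysomes alone. AT5G02570 and AT3G53650 are 2 of the 4 genes, beside 3.84% of all probe sets that rose. HTB11 changed by 0.58 ± 0.19 (adjusted p = 0.11) and passed without gcn2 mock replicate 3 (0.75, adjusted p = 0.042).

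ASF1B read 8.45, 8.49 and 8.69 in small polysomes of gcn2 mock and 7.40, 7.63 and 7.37 in gcn2 herbicide. In large polysomes it read 7.75, 8.11 and 8.04 in mock and 6.85, 7.08 and 6.73 in herbicide. All herbicide arrays lay below all mock arrays in each pool, and polysomal ASF1B fell 2.11-fold (-1.08 ± 0.21, adjusted p = 0.0052), beside 0.932% of all probe sets that fell. In large polysomes alone the fall had the same size but an adjusted p of 0.052, and AT3G53650 there had an adjusted p of 0.081.

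In wild-type polysomal RNA 0 of the 4 genes passed with all gradients, beside 0.0% of all probe sets, and none had an unadjusted p below 0.05. The changes ran from -0.14 for ASF1B to 0.65 for AT5G02570. Without the replicate 3 gradients AT5G02570 passed at 1.52 ± 0.21 (adjusted p = 0.0036), beside 0.853% of all probe sets that rose, and the other 3 genes did not. The polysomal interactions were 1.48 ± 0.51 for AT5G02570, 1.07 ± 0.39 for AT3G53650, 0.34 ± 0.27 for HTB11 and -0.94 ± 0.29 for ASF1B. None passed (adjusted p from 0.28 to 0.79), beside 0.409% of all probe sets, while 3 had an unadjusted p below 0.05. Without the wild-type replicate 3 gradients the interactions were 0.61 ± 0.27 for AT5G02570, 0.65 ± 0.34 for AT3G53650, 0.33 ± 0.31 for HTB11 and -0.60 ± 0.26 for ASF1B, and none passed, beside 0.444%. Gcn2 minus wild type in herbicide also passed for none, beside 1.93% of all probe sets, and 2 had an unadjusted p below 0.05. In herbicide the polysomal difference for ASF1B was -0.71 ± 0.21 (adjusted p = 0.11), and in small polysomes alone -0.87 ± 0.22 (adjusted p = 0.047). Without the wild-type replicate 3 gradients it was -0.51 ± 0.18 (adjusted p = 0.28), and the H2B genes gave 0.26, 0.36 and 0.17 in the order AT5G02570, AT3G53650, HTB11, from 0.71, 0.71 and 0.20 with all gradients. None of them passed, beside 1.81%.

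In mock, gcn2 minus wild type passed for none of the 4 genes in non-polysomal RNA, beside 0.0747% of all probe sets, or in polysomal RNA, beside 0.0659%. The lowest values were those of AT5G02570, -1.49 ± 0.58 in non-polysomal RNA, which had an unadjusted p below 0.05, and -0.76 ± 0.36 in polysomal RNA. They were -0.84 ± 0.22 and -0.35 ± 0.19 without the wild-type replicate 3 gradients, where again none of the 4 genes passed, beside 0.0528% and 0.0615%. AT3G53650 then went from -0.95 to -0.44 in non-polysomal RNA and from -0.36 to -0.29 in polysomal RNA.

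Polysome loading, polysomal minus non-polysomal RNA of the same gradient, measures how a message was spread over the gradient. With herbicide 0 of the 4 genes passed in wild type, beside 0.0% of all probe sets, and 0 in gcn2, beside 0.0484%. The interaction passed for none of them, beside 0.0% of all probe sets, and nor did the mock comparison of the genotypes, beside 0.00879%. In each of these 2 tests and in gcn2, 1 gene had an unadjusted p below 0.05, and in wild type none had. For ASF1B in gcn2 the change was 0.65 ± 0.21 (adjusted p = 0.36, unadjusted p = 0.0054), since its non-polysomal signal fell by more than its polysomal signal. In herbicide, loading in gcn2 minus wild type ran from 0.42 to 0.73 and passed for none, beside 0.141% of all probe sets. ASF1B had the top of that range, 0.73 ± 0.21 (adjusted p = 0.13, unadjusted p = 0.0021). Without the wild-type replicate 3 gradients the differences were larger for the H2B genes, at 0.83 ± 0.25 for AT5G02570, 0.94 ± 0.29 for AT3G53650 and 0.68 ± 0.26 for HTB11, and 0.72 ± 0.22 for ASF1B. They did not pass (adjusted p from 0.082 to 0.16), beside 3.36% of all probe sets. Without those gradients the herbicide change of loading in wild type was -1.20 ± 0.32 for AT3G53650 (adjusted p = 0.085), -0.79 ± 0.28 for HTB11, -0.51 ± 0.27 for AT5G02570 and 0.01 ± 0.24 for ASF1B. With all gradients these were -0.31, -0.32, 0.14 and -0.04, and none passed in either fit, beside 0.0044% without those gradients. The interactions, -0.31 for AT5G02570, -0.10 for AT3G53650, 0.41 for HTB11 and 0.69 for ASF1B, became 0.34, 0.80, 0.89 and 0.63, and none passed, beside 0.0044%. In mock, gcn2 minus wild type ran from 0.04 to 0.73 with all gradients and from -0.21 to 0.49 without those of wild-type replicate 3, where none passed, beside 0.0176%.

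The level of loading in each group was measured with each gradient centred on its median, so that 0 is the typical message. ASF1B lay below it in wild-type mock (-0.84 ± 0.15, adjusted p = 0.00033), beside 16.9% of all probe sets. It was also below in wild-type herbicide (-0.91 ± 0.15, adjusted p = 0.00013), beside 14.6%, and in gcn2 mock (-0.82 ± 0.15, adjusted p = 0.00041), beside 14.9%. In gcn2 herbicide it was -0.15 ± 0.15 (adjusted p = 0.51). Thus 3 groups lay close together for ASF1B, and 2 of the 12 gradients, both of gcn2 herbicide, were above 0. The gcn2 herbicide gradients spread widely, with a standard deviation of 0.35 against 0.06 to 0.16 in the other groups. With 1 of them left out, the gcn2 herbicide mean ran from -0.28 to 0.05.

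HTB11 was above the median in gcn2 herbicide (0.61 ± 0.22, adjusted p = 0.047), beside 13.8% of all probe sets, and no longer passed when any of its 3 gradients was left out (adjusted p from 0.051 to 0.31). AT5G02570 and AT3G53650 passed in no group with all gradients, and their group means ran from -0.25 to 0.45 and from -0.32 to 0.59. Without the wild-type replicate 3 gradients, HTB11 passed as higher in wild-type mock (0.80 ± 0.20, adjusted p = 0.0078), beside 13.8% of all probe sets. AT3G53650 then passed as lower in wild-type herbicide (-0.75 ± 0.23, adjusted p = 0.024), beside 13.5%, as ASF1B did (-0.88 ± 0.17, adjusted p = 0.0014).

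Within the polysomes, with arrays not centred, all 4 genes had a higher signal in small than in large polysomes in 12 of 12 gradients. That held for 12.06% of all probe sets. The median difference over gradients was 1.30 for AT5G02570, 0.94 for AT3G53650, 0.66 for ASF1B and 0.54 for HTB11. For all 4 genes the lowest gradient was above 0, at 0.23 for HTB11 and 0.80 for AT5G02570. The large polysome array of wild-type mock replicate 1 had a median of 5.668, against 6.145 to 6.311 for all other arrays. Outside that gradient the arrays had similar medians, so these differences are relative to the other messages. Within it, the low median raised the difference of a typical message above 0. The lowest HTB11 value, 0.23, came from that gradient. It was smaller than the gap between the medians of its small and large polysome arrays.

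Over the 16 group means of all RNA types, the 3 H2B genes followed each other, with Pearson r of 0.946 for AT5G02570 and AT3G53650, 0.858 for AT5G02570 and HTB11 and 0.842 for AT3G53650 and HTB11. ASF1B correlated with them at -0.236, -0.158 and -0.115 in the order AT5G02570, AT3G53650, HTB11. The points share arrays and include the gradients labelled wild-type replicate 3, so these values are a description. Of 6086 named genes with a range of at least 1 log2 unit over the same means, those most like AT5G02570 were AT2G37470 (0.962), AT3G09480 (0.962) and AT2G21640 (0.956), of which the first pair are H2B genes. Those most like AT3G53650 were AT3G09480 (0.953), AT3G11580 (0.953) and AT4G20000 (0.946). HTB11 had AT2G28720 (0.942), an H2B gene, CYTC-2 (0.935), a cytochrome c gene, and AT3G28940 (0.925). ASF1B had AT1G08210 (0.966), AT1G47740 (0.958) and AT1G01240 (0.944). Spearman rank correlation put none of these below place 22 for its member.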

How the data were processed

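The deposited table holds log2 values of 22810 probe sets on 48 arrays. RMA, MAS5 and the affy package are named in the submitters' processing notes, without versions, and the sources used here do not say if the 48 arrays were normalized as 1 set. After 64 control probe sets were left out, 22746 were tested. The probe table and RefSeq named 1 gene for 13513 of them, several for 503 and none for 8730. For each measure, 4 groups of 3 were fitted in limma 3.58.1 (lmFit, contrasts.fit, eBayes; R 4.3.3), and the method was tested on simulated data. Benjamini-Hochberg adjustment covered every tested probe set. The members and gene lists were chosen with earlier results of these data known. The text names all measured H2B genes, up to 2 rising and 2 falling genes of other lists, their remaining members where few were measured, and the 3 genes most like each member. Same-numbered total RNA samples of different groups deviated together in 18 of 18 pairs (mean correlation 0.366), so the replicate block counts as a pairing there. The block for genes of the lists was added after seeing the data. This held for 15 of 18 pairs in polysomal RNA, 10 of 18 in non-polysomal RNA and 4 of 18 in polysome loading. Promoter motifs and sequences were not analysed here. Arrays carry no counts, so their number limits the precision.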

Additional observations from a re-analysis of the deposited data

Results flagged for a closer look

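For 2 genes a test found that the herbicide response differed between the genotypes. ASF1B in non-polysomal RNA changed by -1.72 in gcn2 and -0.10 in wild type, a difference of -1.62 (adjusted p = 0.029, limma, n = 3 per group), beside 0.106% of all probe sets that were lower. The wild-type value averages -0.28 and -0.71 with 0.69 from the gradients labelled replicate 3. Without those gradients the difference was -1.23 (adjusted p = 0.079) and did not pass. With single arrays left out it passed only without wild-type mock replicate 2, wild-type herbicide replicate 1 or gcn2 herbicide replicate 3. In total RNA the fit with the replicate block gave a difference of -0.69 for ASF1B (adjusted p = 0.032), from -0.95 in gcn2 and -0.25 in wild type. The same fit gave 0.65 for AT3G53650 (adjusted p = 0.021), from 1.24 in gcn2 and 0.58 in wild type. In that fit 1.79% of all probe sets were lower and 2.83% higher. Without the block neither gene passed in total RNA (limma, adjusted p = 0.1 for ASF1B and 0.53 for AT3G53650). In each replicate pair of total RNA the ASF1B change was below 0, from -1.07 to -0.80 in gcn2 and from -0.63 to -0.06 in wild type.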

How the results depend on the processing

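Across the alternatives, 1225 results of the 4 genes were counted as unchanged, 27 lost and 22 gained the call, and 66 changed sign. The 1225 include a rank correlation entry for each of the 4 genes, which has no direction or threshold to keep. The others of the 1225 kept their direction and side of the threshold. Of the counts of genes past the threshold, 301 stayed within 1.5 times and 33 did not. With the replicate block in total RNA, the pairing raised the interaction count to 2 (ASF1B -0.69, AT3G53650 0.65), and AT3G53650 in wild type (0.58) and HTB11 in gcn2 (0.41) gained their calls. The block, added for the listed genes after seeing the data, left 44 of their herbicide changes in total RNA on the same side of the threshold and brought 8 past it. HTB11 in gcn2 also passed with an intensity trend (0.41), with array weights (0.39) and with dim probe sets left out (0.41). The block took the count of loading levels in gcn2 herbicide to 0.

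Leaving out the wild-type replicate 3 gradients moved the wild-type counts to 3 (non-polysomal RNA), 1 (polysomal RNA), 2 (loading level, mock) and 2 (loading level, herbicide), and the non-polysomal interaction count to 0. It turned the non-polysomal interaction of AT3G53650 (-0.14), gcn2 minus wild type in non-polysomal herbicide RNA for AT3G53650 (-0.58) and AT5G02570 (-0.57), the wild-type loading change of ASF1B (0.013) and AT5G02570 (-0.51), and the loading level of AT5G02570 in mock (0.062) and HTB11 in herbicide (-0.081). It also turned the loading interaction of AT3G53650 (0.80) and AT5G02570 (0.34), and gcn2 minus wild type in mock for HTB11 in non-polysomal RNA (0.044) and in loading (-0.21). Array weights turned the wild-type loading change of ASF1B (0.055) and AT5G02570 (-0.40), that of HTB11 in gcn2 (-0.0048), and gcn2 minus wild type in non-polysomal herbicide RNA for AT3G53650 (-0.085) and AT5G02570 (-0.071). They turned the loading interaction of AT3G53650 (0.56) and AT5G02570 (0.22), and gcn2 minus wild type in mock for ASF1B in non-polysomal RNA (-0.017) and HTB11 in loading (-0.17). They moved the loading count of gcn2 minus wild type in herbicide to 1. Centred arrays (-0.028) and small polysomes only (-0.042) turned the wild-type loading change of AT5G02570, large polysomes only that of ASF1B (0.050), and quantile normalization the non-polysomal interaction of HTB11 (0.053). Centred arrays turned the loading interaction of AT3G53650 (0.064). In mock, gcn2 minus wild type in loading turned for ASF1B (-0.083) and HTB11 (-0.0028) with centred arrays, and for ASF1B with quantile normalization (-0.047) and small polysomes only (-0.20). Small polysomes only also turned it for ASF1B in polysomal RNA (-0.022). Small polysomes only moved the polysomal count of gcn2 minus wild type in herbicide to 1, and large polysomes only that of herbicide in gcn2 to 1.

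With single arrays or gradients left out, counts ran from 1 to 2 (total RNA, wild type), 0 to 1 (total RNA interaction), 0 to 1 (non-polysomal interaction), 1 to 2 (non-polysomal RNA, gcn2), 1 to 2 (loading level, wild-type mock) and 0 to 0 (loading level, gcn2 herbicide). In total RNA HTB11 ran from 0.48 to 0.61 in wild type and 0.35 to 0.50 in gcn2, and the ASF1B interaction from -0.82 to -0.60. Results whose sign turned follow. In total RNA, gcn2 minus wild type ran from -0.15 to 0.073 (ASF1B, mock), -0.13 to 0.011 (HTB11, mock), -0.0018 to 0.44 (AT3G53650, herbicide) and -0.073 to 0.091 (AT5G02570, herbicide). In non-polysomal RNA it ran from -0.58 to 0.62 (AT3G53650, herbicide), -0.57 to 0.80 (AT5G02570, herbicide), and -0.43 to 0.044 (HTB11, mock), ASF1B in wild type from -0.32 to 0.16 and the HTB11 interaction from -0.39 to 0.085. Polysomal ASF1B in wild type ran from -0.34 to 0.040. Loading changes ran from -0.32 to 0.025 (AT5G02570, gcn2), -0.27 to 0.45 (AT5G02570, wild type) and -0.098 to 0.28 (HTB11, gcn2). Loading interactions ran from -0.39 to 0.35 (AT3G53650) and -0.62 to 0.10 (AT5G02570), and gcn2 minus wild type in mock loading from -0.034 to 0.098 (ASF1B) and -0.21 to 0.36 (HTB11). Loading levels ran from -0.28 to 0.052 (ASF1B, gcn2 herbicide), -0.017 to 0.48 (AT3G53650, gcn2 herbicide), -0.29 to 0.54 (AT3G53650, wild-type mock), -0.53 to 0.15 (AT5G02570, wild-type herbicide), -0.52 to 0.062 (AT5G02570, wild-type mock) and -0.081 to 0.17 (HTB11, wild-type herbicide). The cause of these shifts was not tested. A lone or paired sample was assumed to vary like the other groups.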
